A study of Mus musculus with 4 samples.

Results

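Cytosolic ribosomal protein genes encode the protein subunits of the 80S ribosome outside mitochondria. Their mRNAs were chosen by symbol, as listed genes named Rpl, Rps or Rplp followed by a number, together with Rpsa, leaving out the S6 kinase genes (Rps6k) and Rps19bp. The rule took 72 of the 7000 listed genes, with 42 proteins of the large subunit and 30 of the small subunit. Of these, 68 are canonical subunits and 4 are paralogs or like genes (Rpl36al, Rpl22l1, Rpl7l1 and Rps27l). Liver RNA was sequenced from male wild-type mice of the FVB/N strain, which received a torula yeast diet from weaning for 6 weeks. The diet was supplemented with 0 ppm Se in the 0 Se group (2 mice, numbered 1 and 2) and with 0.1 ppm Se, as sodium selenite, in the 0.1 Se group (2 mice, numbered 4 and 5). Ribosomal RNA was removed before random priming, so the libraries were not selected by poly(A) tail.

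The values described are the authors' means over the 4 libraries, given as log2 counts per 1000000 aligned reads (CPM) and turned back into CPM here. They carry 0 columns for single mice, so no spread between mice, no depth and no comparison of the diets is given for any gene, and the diet effect on these mRNAs was not analysed here. For the same reason no order between neighbouring levels can be set against an error. Levels are compared between genes as CPM per kb of the listed mRNA length, and quartiles describe the spread among genes. The listed genes stand in the order of the authors' comparison of the diets and end with number 7000. A gene that is not listed is therefore named only, and medians hold for listed genes.

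A ribosome holds 1 copy of nearly every ribosomal protein, and the acidic P proteins of its stalk are present in several copies. In vertebrates many of these mRNAs begin with a C followed by an unbroken run of pyrimidines, the 5′ terminal oligopyrimidine (TOP) tract, through which mTOR and the RNA-binding protein Larp1 control their translation. Liver secretes most of the plasma proteins. Since mRNA level and translation can differ, none of the values below measures ribosome number or protein synthesis.

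The tract is visible in the annotated starts of several members. Each line below gives 25 bases before and 20 bases from the annotated start, read 5′ to 3′ on the gene's strand, from RefSeq on GRCm38.p6. Capitals mark the pyrimidine run that begins with a C within 5 bases of the start. The genes with a run were shown because they span short and long tracts and high and low levels, and they were picked after the values were seen.
Rps6 (chr4:86857348-86857392, minus strand): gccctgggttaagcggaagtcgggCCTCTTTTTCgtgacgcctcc
Rps18 (chr17:33955646-33955690, minus strand): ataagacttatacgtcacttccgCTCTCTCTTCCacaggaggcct
Rpl35 (chr2:39005112-39005156, minus strand): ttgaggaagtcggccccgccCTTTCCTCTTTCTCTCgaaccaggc
Rps10 (chr17:27635225-27635269, minus strand): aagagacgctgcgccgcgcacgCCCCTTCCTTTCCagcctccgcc
Rpl15 (chr14:18270967-18271011, minus strand): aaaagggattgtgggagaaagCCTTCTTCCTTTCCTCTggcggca
Rpl28 (chr7:4792940-4792984, plus strand): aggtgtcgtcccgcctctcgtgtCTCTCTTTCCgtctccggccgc
Rps15a (chr7:118116128-118116172, minus strand): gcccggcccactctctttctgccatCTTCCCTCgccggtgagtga

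Not every member had such a start in that annotation. The members below had no C within 5 bases that opened a run of at least 4 further pyrimidines, and they include the highest 2 levels per kb as well as low ones.
Rpl10 (chrX:74270791-74270835, plus strand): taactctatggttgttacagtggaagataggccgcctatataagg
Rpl41 (chr10:128549149-128549193, minus strand): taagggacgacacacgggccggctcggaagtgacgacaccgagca
Rps16 (chr7:28350664-28350708, plus strand): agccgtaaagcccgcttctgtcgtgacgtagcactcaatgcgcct
Rpl37 (chr15:5116588-5116632, plus strand): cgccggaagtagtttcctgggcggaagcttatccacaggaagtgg

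Promoter windows were matched for 54 of the 72 members. A TOP-like start, a C within 5 bases of the annotated start followed by at least 4 pyrimidines, was found in 26 of the 54 (48.1%, exact 95% interval 34.3 to 62.2%). The same letters were found in 1310 of 5559 other listed genes (23.6%, 22.5 to 24.7%) and in 21.2% of all 27025 genes with a promoter window. When the C had to lie exactly at the annotated start, 11 of 54 members (20.4%, 10.6 to 33.5%) and 2.79% of other listed genes had it. With at least 7 pyrimidines after the C the shares were 33.3% of members and 5.70% of other listed genes. The intervals cover counting over genes alone, and an annotated start may lie some bases away from the one used in liver. Small subunit genes had the start in 11 of 22 cases and large subunit genes in 15 of 32.

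Base composition around the start was compared as well. Over the first 10 transcribed positions, C or T stood at 59.4% of positions in the 63 starts of members and at 46.3% in the 7083 starts of other listed genes. In positions 11 to 20 the shares were 54.4% and 48.6%, and in positions 21 to 50 they were 56.6% and 47.8%, so the difference was not limited to the first bases. Members with and without the TOP-like start had similar medians of mRNA level, 299 CPM per kb for the 26 with it and 284 for the 28 without it. The quartiles were 220 to 369 with the start and 194 to 357 without it, so the ranges overlapped widely.

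**Figure D1:**
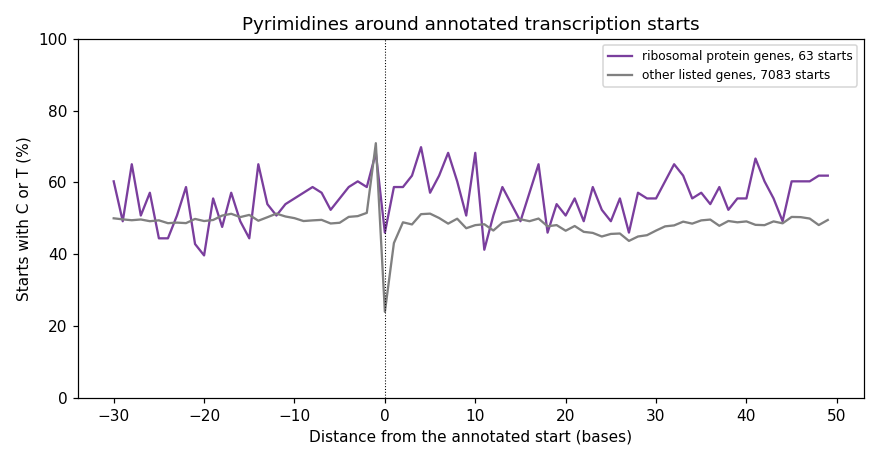
The lines give the percent of annotated transcription starts with a C or T at each distance from the start in bases, where 0 is the first transcribed base, for 63 starts of ribosomal protein genes and 7083 starts of other listed genes. Over the first 10 transcribed bases the mean was 59.4% for the ribosomal protein genes and 46.3% for the others.

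Further short motifs were counted in the whole window of 300 bases, 250 before to 50 after the start, on both strands, and were chosen after the data were seen. The core of ETS family factor sites, CCGGAAG, stood in 21 of 54 members (38.9%), in 19.9% of other listed genes and in 9.93% of all genes. The core of the YY1 site, AAGATGG, stood in 8 members (14.8%), against 8.06% of other listed genes. TATAA, the core of the TATA box, stood in 14 members (25.9%), in 16.7% of other listed genes and in 28.0% of all genes. The median level was 324 CPM per kb in the 21 members with the ETS core (quartiles 259 to 414) and 262 in the 33 without it (181 to 348), and these ranges overlapped. It was 222 in the 8 members with the YY1 core and 289 in the 46 without it, and 308 in the 14 with TATAA and 286 in the 40 without it. A match describes letters in a window and is not a bound site.

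The mRNAs of the 72 members were abundant in liver. Their median was 297 CPM per kb (quartiles 214 to 370), against 6.19 CPM per kb over all 7000 listed genes. In plain CPM the median was 217, and 64 of the 72 members reached 100 CPM, as did 931 of the 7000. Together the members summed to 16715 CPM, which is 2.58% of the CPM of the listed genes, while they make up 1.03% of those genes. Per kb their share of the listed sum was 6.29%. The listed genes themselves hold 64.8% of 1000000 CPM, so the share of all aligned reads was smaller than the share of the listed sum, 1.67%.

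The liver origin of the RNA is visible in the marker genes. Of 10 hepatocyte markers 5 were listed (Apoa2, Apoa1, Fgb, Fga and Serpina1a), with levels from 1230 to 14845 CPM per kb, above every ribosomal protein mRNA. Of the 9 Kupffer cell symbols 6 were listed, and Adgre1, which was not, is the newer symbol of the listed Emr1. The highest of the listed Kupffer cell markers was Clec4f at 74.8 CPM per kb. Of the endothelial markers (5 of 6) the highest was Clec4g at 76.9, and of the stellate cell markers (6 of 6) Dcn at 98.3. The only listed lymphocyte, erythroid and bile duct markers were Ptprc (3.93), Alas2 (19.1) and Spp1 (16.5). The part of each cell type in the ribosomal protein mRNA of whole liver was not tested, and fewer cells of a type and less RNA per cell cannot be told apart.

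Small and large subunit mRNAs had nearly the same median, 297 CPM per kb for the 30 small subunit members (quartiles 227 to 343) and 297 for the 42 large subunit members (207 to 374). Most canonical members lay close together. Of 68, 44 were within 1.5-fold of the canonical median of 300.3 CPM per kb, 59 within 2-fold and 65 within 3-fold. The 3 beyond 3-fold were all below the median, Rps15a, Rpl37 and Rpl31. Per kb of unique windows, Rpl31 was at 127 CPM per kb and no longer beyond 3-fold, and Rps15a and Rpl37 still were. The Rpl31 transcript searched for these windows had 1037 bases, against 1253 listed. The canonical levels spanned 49-fold from Rpl10 to Rps15a, and 17.5-fold when Rps15a was left out.

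**Figure D2:**
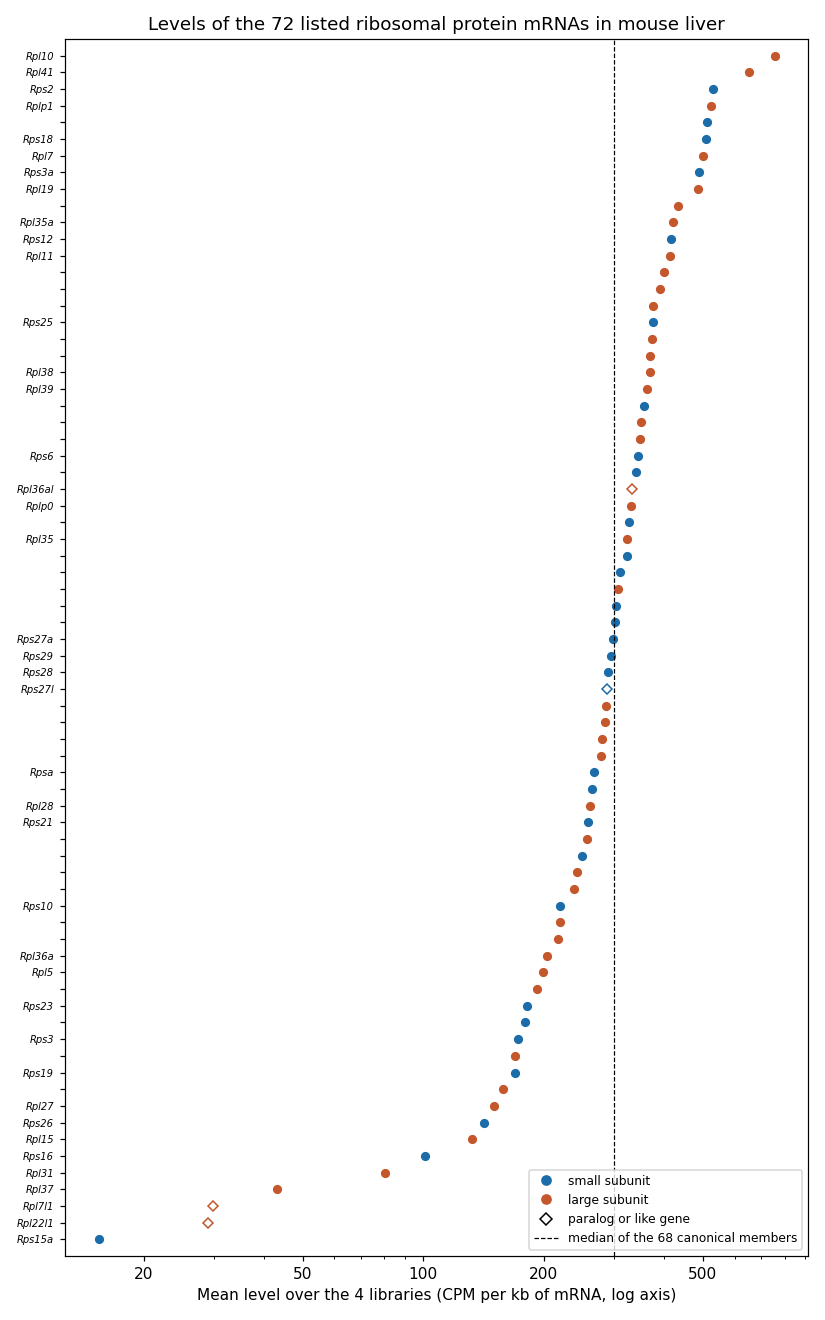
Each point is the mean level of a ribosomal protein mRNA over the 4 libraries in CPM per kb of mRNA, on a log axis, with members ordered by level and labelled where the text names them, subunits in colour and paralogs or like genes as open diamonds. The dashed line is the median of the 68 canonical members (300.3 CPM per kb), and no error bars can be drawn because single mice have no values.

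In the large subunit the highest level was that of Rpl10, whose protein joins the subunit late in its assembly, at 756 CPM per kb (601 CPM over an mRNA of 795 bases). The gene lies at chrX:71516151-71518474 on the plus strand of NCBIM37 and its annotated transcript has 7 exons. Rpl41, which encodes the smallest and one of the most basic ribosomal proteins, followed at 650 CPM per kb. Rplp1, an acidic protein of the P stalk that recruits translation factors, stood at 524. Rpl7 was at 501 and Rpl19, whose long helix reaches towards the small subunit, at 488. These 5 were 1.62 to 2.52 times the canonical median.

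The small subunit was led by Rps2 at 531 CPM per kb (531 CPM over 999 bases), which lies near the path by which mRNA enters the ribosome. Per kb of unique windows, Rps23 would stand above it at 785 CPM per kb, against 181 per kb of the whole mRNA. Rps18 stood at 510, Rps3a at 489 and Rps12 at 415 CPM per kb. Without values for single mice the order of Rps2, Rps18 and Rps3a cannot be resolved.

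Lowest per kb of all members was Rps15a, at 15.4 CPM per kb. The listed mRNA of this small subunit gene is 5134 bases long, and in plain CPM it held 79.3, the same range as Rps26 with 63.7 and Rps28 with 94.7. Its gene at chr7:125247892-125259700 of NCBIM37 (minus strand) has an annotated transcript of 5130 bases, of which 4722 are 3′ UTR and 393 coding. Per kb of coding sequence Rps15a stood at 202 CPM. The listed length is that of the longest isoform and enters a level per kb directly, and whether the reads came from a shorter isoform was not tested. Rps16, which had a usual length of 615 bases, was the next lowest of the small subunit at 101 CPM per kb. Rps26, which lines the mRNA exit channel, stood at 142, Rps19, the gene most often mutated in Diamond-Blackfan anaemia, at 170, and Rps3, at the mRNA entry channel, at 172.

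The low end of the large subunit was shared by like genes and canonical genes. Rpl22l1 was at 29.0 and Rpl7l1 at 29.8 CPM per kb. Rpl37 was the lowest canonical member, at 43.1 CPM per kb (37.4 CPM over 867 bases, 0.143 of the canonical median). Rpl31, at the exit of the peptide tunnel, stood at 80.3 and Rpl15 at 132 CPM per kb. Both have long listed mRNAs, 1253 and 1841 bases. Rpl37 was low in plain CPM as well, where it was the lowest canonical member, while Rpl15 held 244 CPM, above the median of all members.

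The 4 like genes differed widely in level. Rpl7l1, which acts in large subunit assembly, was at 0.0595 of the level per kb of Rpl7. Rpl36al, whose protein is nearly identical to that of Rpl36a, was at 332 CPM per kb against 204 for Rpl36a, a ratio of 1.63. The direction of this difference is uncertain, since reads from shared stretches may have been lost. Per kb of windows of 50 bases that no other transcript shares, Rpl36al was at 364 and Rpl36a at 392 CPM per kb, a ratio of 0.928. Rps27l, a p53-responsive relative of Rps27, stood at 287 CPM per kb, close to the canonical median, and Rpl22l1 at 29.0. Their partners Rps27 and Rpl22 are not listed.

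The canonical list written for the ribosome holds 79 genes, 32 of the small and 47 of the large subunit. Of these, 70 were listed. The rule took 68 of them and left those whose symbols do not begin with Rp. Among the genes left was Fau, which encodes a small subunit protein of the S30 family fused to a ubiquitin-like protein, at 227 CPM per kb. Rps27a, a ubiquitin fusion that the rule took, stood at 298. The 9 canonical genes that are not listed are Rps4x, Rps27, Rplp2, Rpl6, Rpl22, Rpl26, Rpl30, Rpl34 and Rpl36.

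Of the P stalk genes, Rplp0, the scaffold that anchors the stalk, stood at 331 CPM per kb and Rplp1 at 524, a ratio that can be read only as a mean over 4 libraries. Rplp2 is not listed. Rps6, the substrate of the S6 kinases downstream of mTOR, was at 345 CPM per kb (480 CPM over 1394 bases). Of 21 genes on the list of S6 kinases and regulators, 12 were listed with a median of 8.11 CPM per kb. The S6 kinase genes Rps6kb1 and Rps6kb2 are not listed, so their levels are unknown here. The only listed Rps6k symbols were Rps6ka1, Rps6ka2 and Rps6kc1. Mtor was at 8.98, Rptor at 3.85, Larp1 at 9.70, Larp4 at 27.0 and Eif4ebp1, a translation repressor inhibited by mTOR, at 28.1 CPM per kb. Per kb, all 12 listed genes of this list lay below every member except Rps15a. In plain CPM this separation did not hold, since Larp4, with an mRNA of 6534 bases, held 177 CPM and Rpl37 37.4.

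Other mRNAs known for a TOP tract were measured beside the members. Of 19 on the list 12 were listed, with a median of 72.4 CPM per kb. Among them, Tpt1 was at 641 and Gnb2l1, the ribosome-bound scaffold Rack1, at 257 CPM per kb, and Fau is on this list too. Eef1b2 was at 70.4, Pabpc1 at 28.9 and Eif3f at 16.8. Ribosome biogenesis genes, which act in the nucleolus and in export, were far lower. Of 35, 22 were listed, with a median of 10.3 CPM per kb. They ran from Gar1 at 1.51 to Nop10 at 69.0, and Fbl, the methyltransferase of box C/D particles, was at 10.04.

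Mitochondrial ribosomal proteins, which serve a separate ribosome, gave a comparison of like function. The 48 listed genes had a median of 24.96 CPM per kb, from 5.62 (Mrpl17) to 80.7 (Mrpl30). Of the 72 cytosolic members, 67 lay above the highest mitochondrial level. The 5 that did not were Rps15a, Rpl22l1, Rpl7l1, Rpl37 and Rpl31. In plain CPM the medians were 217 for the cytosolic and 24.4 for the mitochondrial genes. Together the 48 mitochondrial genes held 0.210% of the listed CPM.

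Ribosomal protein mRNAs are short, so each was ranked among the other listed mRNAs within 10% of its length. At or above the 90th percentile of its length class were 47 of 72 members (65.3%), where 10.1% of the other listed genes reached it in their own classes. All members but 1 lay above the median of their class, and the exception was Rpl22l1, at percentile 32. The median member was 9.03 times its class median, and the range was 0.435 (Rpl22l1) to 37.2 (Rpl10). Classes were small for the shortest mRNAs. For 10 members they held under 50 genes, and for Rps28 there were 4.

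The rank differed with length. Of the 35 members under 700 bases 15 were at or above the 90th percentile, and of the 37 of 700 bases or more 32 were. Just inside the threshold lay Rpl27 at percentile 90.2 and Rpl35a at 90.8, and just outside it Rpl41 at 89.5 and Rpl31 at 89.3. Rpl41, second of all per kb, thus missed the threshold in a class of 38 genes. Of the other listed genes, 184 of 6928 were under 700 bases. The class medians of members under 700 bases lay between 14.2 and 39.4 CPM, and those of longer members did not pass 20.1 CPM.

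**Figure D3:**
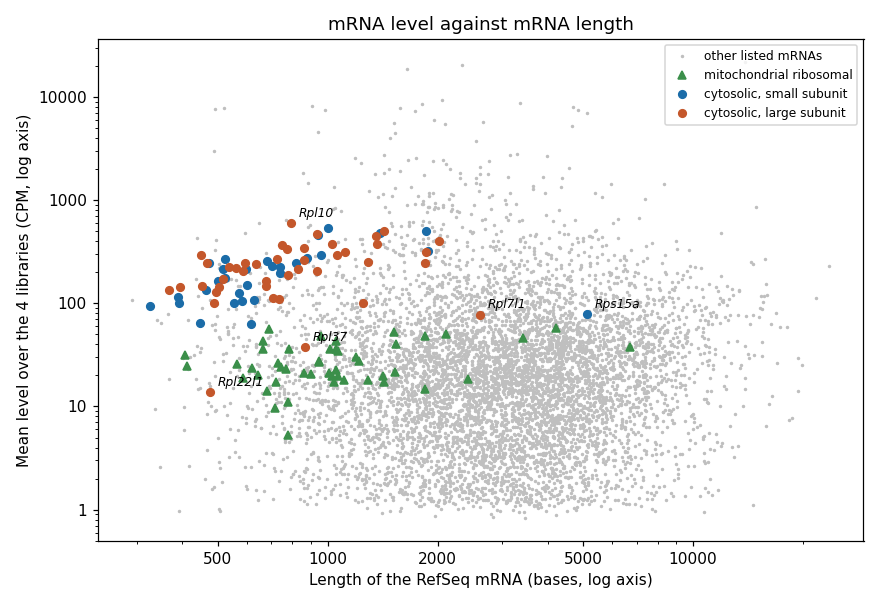
Each point is a listed mRNA, with its length in bases on the horizontal axis and its mean CPM over the 4 libraries on the vertical axis, both on log axes, the 72 cytosolic members coloured by subunit and the 48 mitochondrial ribosomal genes as triangles. Of the 72 cytosolic members, 71 lie above the median of their length class and 47 at or above its 90th percentile, and Rps15a is the longest at 5134 bases.

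The members with the shortest mRNAs were Rps28 with 327 bases, Rpl38 with 369, Rps29 with 390, Rps21 with 391 and Rpl39 with 394. Their levels per kb were 290, 368, 295, 259 and 364 CPM per kb, within 1.5-fold of the canonical median. The longest were Rps15a with 5134 bases, Rpl7l1 with 2606, Rpl5 with 2019, Rps3 with 1878 and Rpsa with 1861. Rpl5, which binds the 5S RNA with Rpl11, was at 199 and Rpsa, known also as a laminin receptor, at 267 CPM per kb. In plain CPM both were high, 402 for Rpl5 and 497 for Rpsa.

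Across members, plain CPM rose with mRNA length (Spearman correlation 0.53, n = 72). Among the other listed genes it was 0.042 (n = 6928). For the 62 canonical members of up to 1500 bases the correlation was 0.60 for CPM and -0.059 for CPM per kb. The points share 4 libraries, fragmentation and the longest-isoform reference. These correlations are descriptions across genes, which are not independent replicates.

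Members were matched by symbol to GENCODE vM1 on NCBIM37, the assembly of mm9. Of the 72, 71 were matched (Rpl41 was not), and 61 of them had a transcript within 10% of the listed length. In these 71, CPM had a Spearman correlation of 0.67 with coding length and 0.56 with the listed mRNA length, and the difference between them was not tested. Per kb of coding sequence, a scale added after the data were seen, the 67 canonical members spanned 7.33-fold, from 127 (Rpl37) to 932 (Rpl10), and all 68 spanned 49-fold per kb of mRNA. Rpl41, which encodes the smallest protein, has no coding length here, and a short one would place it above Rpl10 and widen the 7.33-fold span. The median was 451 CPM per coding kb, 459 in the small and 450 in the large subunit. The study describes the counts of its edgeR comparison as reads aligned uniquely to each mRNA, so the level per kb of mRNA is the main scale. It also describes alignments to coding sequences, without codons at either end, and does not say whether these entered the counts. The coding scale is given as a description.

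**Figure D4:**
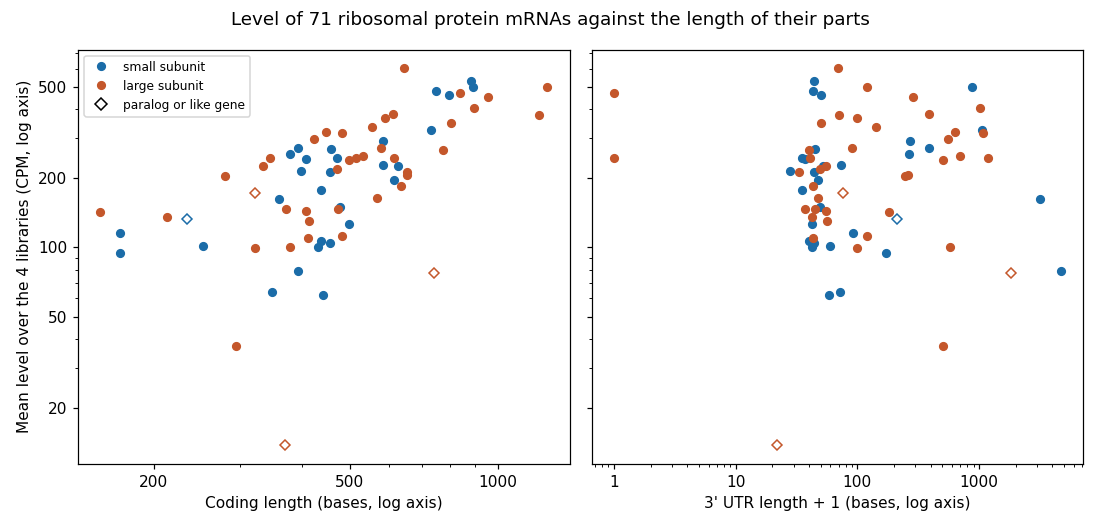
Mean CPM over the 4 libraries of 71 members is plotted against coding length in bases (left) and 3′ UTR length plus 1 base (right), all on log axes, with subunits in colour and like genes as open diamonds. CPM rises with coding length (Spearman correlation 0.67). Members with a 3′ UTR over 1000 bases run from Rpl7l1 at 77.7 CPM to Rpl5 at 402, inside the range of the rest. Rps15a is among them, at 79.3 CPM.

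The members shared an mRNA layout that the rule did not use. Their median coding length was 471 bases against 1392 for the 6860 other matched genes, the median 5′ UTR 86 against 167 bases, and the median 3′ UTR 68 against 962.5 bases. For the 61 members whose matched transcript differed by up to 10% in length, the medians were 474, 83 and 69 bases in the same order. A 3′ UTR under 100 bases was annotated for 44 of 71 members and for 357 of 6860 other genes. The other genes had longer mRNAs, with a median of 2995 bases against 710. These parts were not compared among mRNAs of similar length. GC content was alike, with medians of 50.7% and 50.2%. Codons for lysine and arginine, the basic residues that bind ribosomal RNA, made up a median of 21.5% in members and 11.4% in other genes. Rpl39 had the largest share, 34.6%, and the acidic stalk protein Rplp1 the smallest, 6.09%, with Rpsa at 8.78%. The genes were spread over 19 chromosomes. Within the 71 members, the Spearman correlation of these features with the level per kb was -0.28 for 3′ UTR length, -0.069 for 5′ UTR length, 0.097 for coding length, 0.098 for GC content and -0.11 for the share of lysine and arginine codons.

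Ribosomal protein genes have many processed copies in the genome, and the authors kept only reads with a unique alignment among RefSeq mRNAs. Each annotated member transcript was therefore cut into windows of 50 bases, the read length, and searched with up to 2 mismatches in 20267 coding transcripts. Processed copies without an annotated coding transcript were outside this search. Among the 61 members whose transcript was within 10% of the listed length, 56 had over 90% unique windows and 48 had only unique ones. The 5 others were Rps23 (23.1% unique, shared with Gm5148), Rpl36a (52.1%, Dtnb), Rpl5 (54.6%, Fam69a), Rps25 (74.9%, Ccdc84) and Rps27a (84.6%, 1700034F02Rik). Rpl36al had 91.4%. Reads in shared windows would be lost from these genes if the authors' reference held the same shared stretches, so their levels are uncertain. Whether a shared stretch is a processed copy was not tested. Dividing each level by its share of unique windows, a scale added after the data were seen, gave 785 CPM per kb for Rps23 instead of 181, 392 for Rpl36a instead of 204, 365 for Rpl5 instead of 199, 499.7 for Rps25 instead of 374 and 352 for Rps27a instead of 298. Rpl35 (32.9% unique, shared with Wdr38) and Rpl31 (63.2%, shared with Tbc1d8) had transcripts further than 10% from the listed length. The Rpl35 transcript has 946 bases, 538 of them 5′ UTR, while the listed mRNA has 452 bases. Its unique share does not describe the listed mRNA, so the 985 CPM per kb it gives instead of 324 cannot be ranked. Rpl31 moved from 80.3 to 127 CPM per kb, with a transcript of 1037 bases against 1253 listed. Over the 56 members with over 90% unique windows the median was 287 CPM per kb. Of the low members, Rps15a had 98.7% unique windows, and Rpl37, Rps16, Rpl15 and Rpl22l1 had 100%.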

How the data were processed

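Liver RNA of 4 mice (2 per diet) was sequenced as 50-base single reads after removal of ribosomal RNA. Per the study's methods, the authors aligned reads with Bowtie to mm9 RefSeq mRNAs reduced to the longest isoform, kept unique alignments with up to 2 mismatches, and used edgeR. The deposited log2 CPM are the authors' means over all 4 libraries. The sources used here do not give their normalization or prior count. Further deposited columns hold the authors' own comparison of the diets (fold changes, p-values and FDR). They were not used, and as there are 0 columns for single mice, the planned count test of the diets was not run.

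The members and lists were chosen with earlier results of these data known. CPM was computed as the antilog of the deposited value and divided by the listed mRNA length in kb. Length classes were the listed non-members within 10%. Named genes are the 5 highest and 5 lowest per kb in each subunit, like genes with their partners, the 5 longest and 5 shortest mRNAs, Rps6, the stalk genes, canonical genes outside the rule, and genes of the lists. Others were named after their values were seen, as were the gene features, the motifs and the 700-base split. Transcripts came from GENCODE vM1 (NCBIM37) and promoter windows from RefSeq (GRCm38.p6). The promoter windows of the other members were not analysed here, and some genes that the naming rule covers are not reported here. Where an interval is given with a share, it is an exact (Clopper-Pearson) 95% interval. The functions were tested on simulated data. The tools were bwa 0.7.19, pandas 2.3.3, matplotlib 3.10.9, scipy 1.17.1 and numpy 2.4.6 on Python 3.11.15.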

Additional observations from a re-analysis of the deposited data

How the results depend on the processing

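The median of the members was 297 CPM per kb, and it was 217 in plain CPM, 323 with effective length (listed length minus 49 bases), 300.3 for canonical members alone, 299 with 1 CPM added, 451 per kb of coding sequence, 307 per kb of unique windows and 287 for the 56 members of matched length with over 90% unique windows. For the small subunit these were 204 in plain CPM, 323 with effective length, 298 for canonical members and 459 per coding kb, and for the large subunit 232, 321, 307 and 450. The fold between the highest and lowest canonical member (49) was 16.1 in plain CPM, 51.7 with effective length, 7.33 per coding kb (without Rpl41), 63.0 per kb of unique windows, and 17.5 without Rps15a or with mRNAs of up to 1500 bases. The 63.0-fold runs from Rps15a to Rpl35, whose searched transcript has 946 bases against 452 listed. It therefore cannot be read as a wider span of the members. The share of CPM (2.58%) was 1.67% of 1000000 CPM and 2.62% among genes of at least 10 CPM. The 47 members at or above the 90th percentile of their class became 50 with classes within 20%, 49 within 5%, 47 among canonical members alone and 39 against genes of at least 10 CPM. TOP-like starts (26) were 11 exactly at the start, 44 within 20 bases and 18 with at least 7 pyrimidines. Within 20 bases the letters were common in general, in 81.5% of members and in 55.2% of other listed genes. The coding length, unique-window, no-Rps15a and 1500-base settings were added after the data were seen. No mouse could be left out and depth is unknown, because no values for single mice were used. No paired analysis was possible because the mice of the 2 diets share no number and have no columns of their own.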
